A study of Arabidopsis thaliana with 6 samples.

Results

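The genes described here are 10 named genes of sulfate uptake, sulfate assimilation and the response to sulfur shortage in Arabidopsis thaliana, chosen by their identifiers from the 19955 genes of the authors' deposited table. They are the sulfate transporters SULTR1;1 and SULTR1;2, the ATP sulfurylase ATPS1, the APS reductases APR1, APR2 and APR3, the sulfite reductase SIR, and the sulfur-deficiency genes SDI1, LSU1 and LSU2. RNA was sequenced from untreated whole seedlings of accession Col-0, grown for 7 days in long days, in 3 libraries of the mir163 mutant and 3 of wild type (WT), which the labels call biological replicates. No source used here says how the mutant allele was made. The table gives 1 FPKM value per genotype (fragments per kilobase of transcript, scaled to all mapped fragments), so no spread between libraries can be given and the depth is unknown.

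Roots take sulfate up from the soil through high-affinity transporters of the plasma membrane. ATP sulfurylase then activates it to adenosine 5′-phosphosulfate (APS), APS reductase reduces APS to sulfite, and sulfite reductase makes the sulfide that is built into cysteine. APS reductase is regarded as a main control point, and its mRNA is known to follow light, sugar and the time of day. Under sulfur shortage the transcription factor SLIM1 and the microRNA miR395 adjust uptake and activation, and genes such as SDI1 and the LSU family are strongly induced. miR163, for which the mutant is named, is a different microRNA, known for its methyltransferase targets.

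The mutated locus itself, MIR163 (AT1G66725), was near 0 in the mutant, with an FPKM of 0.0726 in mir163 and 20.5 in WT, with a p of 0.180 in the authors' deposited table. The total FPKM was 1036970 in mir163 and 1136680 in WT, and the median gene stood at 12.25 and 12.24. Root markers, which bear on the root-borne transporters, had a summed FPKM of 305 in mir163 and 308 in WT over 7 genes, with NRT2.1 not analysed here. The 4 shoot markers summed to 31790 in mir163 and 37418 in WT, and each was lower in mir163. Both sets of markers were thus present, as the label of whole seedlings requires. Fewer cells of a type and less RNA per cell cannot be told apart in such samples.

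Most of the sulfate genes had slightly higher FPKM values in mir163, with ATPS1, the most abundant of them, as the exception, and none passed the test. Of the 10 genes, 9 reached an FPKM of 1 in a genotype and were tested. Among them 8 values were above WT and 1 was below it, where 51.3% of all 19264 genes tested were higher. SIR counts among the 8 by a margin so small that scaling by median ratios turned its sign. The median FPKM ratio of mir163 over WT was 1.20 for the 9 genes and 1.01 for all genes tested. As the members were chosen with earlier results of these data known, setting them beside all genes is no test. After Benjamini-Hochberg adjustment of the authors' p-values across every gene tested, 0 of the 9 were called at 0.05. Likewise 0% of all genes were called higher and 0% lower, the lowest adjusted p of any gene being 0.0876. That value belongs to the lowest deposited p, 5e-05, so no gene was called. The 0 of 9 therefore says nothing particular to the members. At an unadjusted p under 0.05 there were also 0 of 9, against 0.67% of all genes higher and 0.327% lower. No member reached a ratio of 1.5 in either direction, a size that 3.55% of all genes reached upwards and 3.33% downwards. The members' unadjusted p-values in the authors' deposited table lay between 0.278 for SDI1 and 0.995 for SIR. Deposited p-values were high in general, with a median of 0.768 over all genes tested. Only 6.62% of those genes had a lower p than SDI1.

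**Figure D1:**
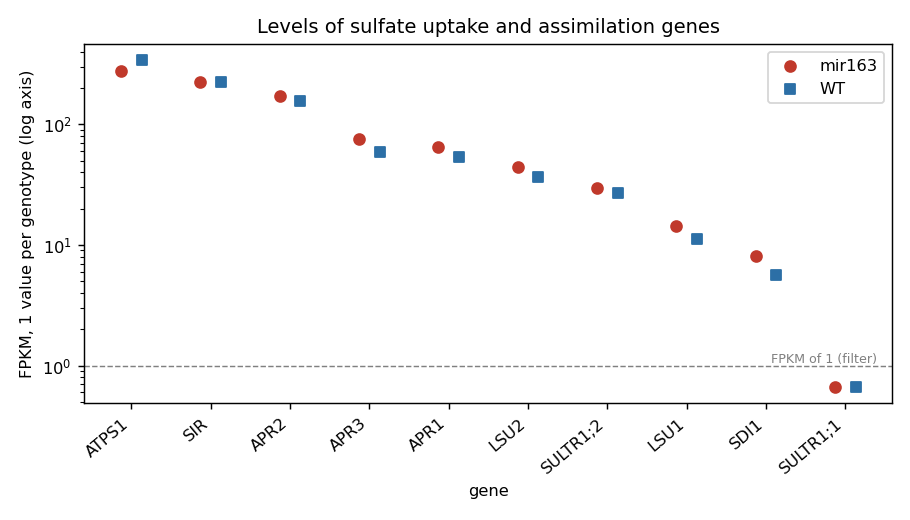
FPKM of the 10 sulfate genes on a log axis, 1 point per genotype, with mir163 as circles and WT as squares and the dashed line at the FPKM of 1 that a gene had to reach to be tested. The order of the genes is the same in both genotypes, from ATPS1 at 279 in mir163 and 340 in WT down to SULTR1;1 at 0.666 and 0.664.

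The order of the 10 levels was the same in both genotypes, as the plot of levels by gene shows. ATPS1 led, followed by SIR, APR2, APR3, APR1, LSU2, SULTR1;2, LSU1, SDI1 and SULTR1;1. FPKM is scaled by transcript length, so these levels can be set side by side. The highest member exceeded the lowest 419-fold in mir163 and 512-fold in WT. The size of these folds rests on SULTR1;1, which was under the FPKM of 1 needed for testing. Whether neighbours in this order, such as APR3 and APR1, differ beyond the spread of their libraries cannot be said from 1 value per genotype. Summed over the 10 genes, FPKM was 913 in mir163 and 914 in WT, since the lower value of ATPS1 balanced the higher values of the others.

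Of the root importers analysed, SULTR1;2 had the higher transcript level in both genotypes. SULTR1;2 (AT1G78000, chromosome 1, positions 29327515 to 29333220, plus strand, TAIR10.1), the main high-affinity importer of roots with ample sulfate, stood at an FPKM of 29.7 in mir163 and 26.8 in WT. This is a ratio of 1.11, with a p of 0.715 in the authors' deposited table. SULTR1;1 (AT4G08620, chromosome 4, positions 5500313 to 5506313, plus strand), the importer that sulfur shortage induces, was under the limit for testing, at 0.666 in mir163 and 0.664 in WT. SULTR1;2 thus exceeded SULTR1;1 44.6-fold in mir163 and 40.4-fold in WT. The third transporter of this group, SULTR1;3, was not analysed here.

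Of the other sulfate transporters, 9 were tested, 4 of them with higher and 5 with lower values in mir163, and 0 were called. Their median ratio was 0.98. The most abundant, SULTR2;1, a low-affinity transporter of the vascular tissue, stood at 59.1 in mir163 and 38.5 in WT, a ratio of 1.54 with a p of 0.290 in the authors' deposited table. It made up 36.5% of the summed transporter FPKM in mir163 and 27.2% in WT. The next, SULTR3;3, was at 21.5 in mir163 and 24.3 in WT. SULTR2;2, the gene beside SULTR1;2 on chromosome 1, was at 7.80 in mir163 and 7.92 in WT. The summed FPKM of the 11 transporters analysed, members included, was 162 in mir163 and 141 in WT.

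ATPS1 (AT3G22890, chromosome 3, positions 8112614 to 8115024, plus strand), a plastid ATP sulfurylase, was the 1 member tested with a lower value in mir163 and stood at an FPKM of 279 in mir163 and 340 in WT. The ratio was 0.82, the lowest among the members, and the authors' deposited table gave a p of 0.578. A log2 ratio at least this far from 0 is common, since 23.1% of all genes tested had a larger one. The other ATP sulfurylases lay close together in the genotypes, with ATPS2 at 95.7 in mir163 and 94.3 in WT, ATPS3 at 17.0 and 15.5, and ATPS4 at 49.9 and 51.9. ATPS1 made up 63.2% of the summed FPKM of the 4 enzymes in mir163 and 67.8% in WT.

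All 3 APS reductases had higher values in mir163. APR2 (AT1G62180, chromosome 1, positions 22975530 to 22977885, minus strand), which carries most of the enzyme's activity in leaves, stood at 171 in mir163 and 156 in WT, a ratio of 1.10. APR3 (AT4G21990, chromosome 4, positions 11657008 to 11659167, minus strand) stood at 75.7 in mir163 and 58.7 in WT, a ratio of 1.29. APR1 (AT4G04610, chromosome 4, positions 2324878 to 2327064, plus strand) stood at 64.6 in mir163 and 53.3 in WT, a ratio of 1.21. Their p-values in the authors' deposited table were 0.782 for APR2, 0.496 for APR3 and 0.529 for APR1. APR2 held 55.0% of the summed APR FPKM in mir163 and 58.2% in WT, and the sum itself was 312 in mir163 and 268 in WT. ATPS1 stood at 0.896 times the summed APR level in mir163 and 1.27 times in WT, a difference for which no test could be made. SIR (AT5G04590, chromosome 5, positions 1319074 to 1323364, plus strand), the only sulfite reductase of assimilation in this plant, was at 225.2 in mir163 and 224.8 in WT, a ratio of 1.00 with a p of 0.995.

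**Figure D2:**
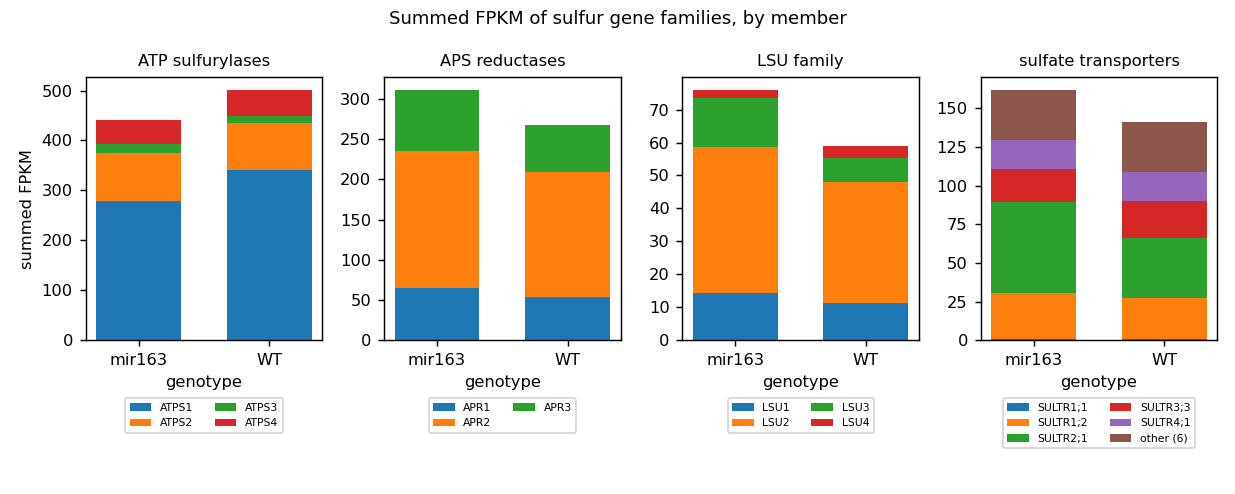
Summed FPKM of 4 families in mir163 (left bar) and WT (right bar), stacked by gene. The ATP sulfurylases sum to 442 in mir163 and 502 in WT, the APS reductases to 312 and 268, the LSU family to 76.0 and 58.9 and the sulfate transporters to 162 and 141.

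The members' transcripts were compared with both microRNAs by sequence. The mature sequences, from the RefSeq annotation of TAIR10.1, have the seed (bases 2 to 8) in capitals, and miR395a and miR395b stand for 3 of the 6 annotated miR395 loci each.
miR163: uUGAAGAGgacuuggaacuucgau
miR395a: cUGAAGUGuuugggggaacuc
miR395b: cUGAAGUGuuuggggggacuc
The seeds of miR163 and miR395 differ at 1 of 7 positions. None of the 10 members held a stretch close to a miR163 site. Without gaps and with at most 4 mismatches, 2 of 27562 protein-coding genes held such a site (0.00726%). A G paired with U counted as a mismatch, here and for miR395. A lack of sites is thus the rule for all genes. The fewest differences from a perfect site, counting mismatches and gaps, lay between 7 and 9 in the members, against 1 in PXMT1, a known miR163 target. No other gene was compared in this way.

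For miR395, without gaps and with at most 4 mismatches to miR395a, 14 of 27562 protein-coding genes, organelle genes included, held a site (0.0508%). ATPS1 was the 1 member among them, and ATPS3, ATPS4 and SULTR2;1 the listed relatives. Each of the 4 sites lies in coding sequence, in its gene's sense. Mismatches to miR395a, pairs of G with U included, are printed in capitals.
ATPS1, chr3:8113164-8113184, plus strand: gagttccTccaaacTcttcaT
ATPS3, chr4:8414958-8414978, minus strand: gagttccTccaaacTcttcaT
ATPS4, chr5:17591121-17591141, minus strand: gagttccTccaaacacttcaT
SULTR2;1, chr5:3193268-3193288, plus strand: AagttcTcccaaacacttcaA
The sites of ATPS1 and ATPS3 are identical and have 3 mismatches, as does that of SULTR2;1, while ATPS4 has 2. The FPKM ratios of mir163 over WT given above for these genes ran both ways, lower for ATPS1 and ATPS4 and higher for ATPS3 and SULTR2;1, and none was called. The miR395 loci were not analysed here.

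Of SDI1, LSU1 and LSU2, the first 2 had the 2 largest ratios of all members, with LSU1 and APR3 both near 1.29. LSU2 lay between the APS reductases. SULTR1;1, which sulfur shortage also induces, was under the limit for testing, with a ratio of 1.00. SDI1 (AT5G48850, chromosome 5, positions 19805437 to 19807853, minus strand), which restrains glucosinolate synthesis when sulfur is short, stood at an FPKM of 8.06 in mir163 and 5.68 in WT. The ratio of 1.42 was the highest of the members, and 9.06% of all genes tested had a log2 ratio further from 0. LSU1 (AT3G49580, chromosome 3, positions 18374908 to 18375940, minus strand) and LSU2 (AT5G24660, chromosome 5, positions 8443279 to 8444101, minus strand) encode small proteins named for their response to low sulfur. LSU1 stood at 14.5 in mir163 and 11.2 in WT, a ratio of 1.29. LSU2 stood at 44.3 in mir163 and 36.7 in WT, a ratio of 1.20. In the authors' deposited table the p-values were 0.278 for SDI1, 0.470 for LSU1 and 0.547 for LSU2.

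The close relatives of these genes did not share 1 direction. LSU3, which lies 1760 bases from LSU1 on the same strand with no annotated gene between, stood at 14.7 in mir163 and 7.36 in WT, a ratio of 1.99 with a p of 0.0811. LSU4, which lies 1914 bases from LSU2 in the same arrangement, stood at 2.59 in mir163 and 3.62 in WT, a ratio of 0.72 with a p of 0.530. SDI2, the relative of SDI1, was at 22.4 in mir163 and 22.3 in WT. SDI1 therefore made up 26.5% of the pair's FPKM in mir163 and 20.3% in WT. These p-values are the unadjusted ones of the authors' deposited table, and none of the 3 genes was called.

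The sulfur-responsive element known from the SULTR1;1 promoter has the core GAGAC. In windows from 250 bases before to 50 after the annotated start, on both strands, this core was found in 2 of the 10 members, SDI1 and LSU2, and in 32.8% of 27443 nuclear protein-coding genes. SULTR1;1 itself had 0 matches there, and sequence further upstream was not searched. The G-box CACGTG, which HY5 can bind, was found in 0 members and in 7.68% of those genes. In LSU2 both matches lie after the start, at bases 6 and 27. In SDI1 1 match begins 23 bases before the start and 1 at base 10 after it. The 250 bases before the start of SDI1 are printed because SDI1 had the largest ratio and the 1 match upstream of a start, which is in capitals, read as GTCTC on the gene's strand.
SDI1, chr5:19807854-19808103, minus strand, TAIR10.1: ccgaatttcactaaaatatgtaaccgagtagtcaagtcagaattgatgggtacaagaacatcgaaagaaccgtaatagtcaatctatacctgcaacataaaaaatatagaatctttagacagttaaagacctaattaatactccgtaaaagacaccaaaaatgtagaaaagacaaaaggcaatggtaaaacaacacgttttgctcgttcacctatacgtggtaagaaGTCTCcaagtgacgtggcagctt
A match is a description of these letters and shows no binding.

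**Figure D3:**
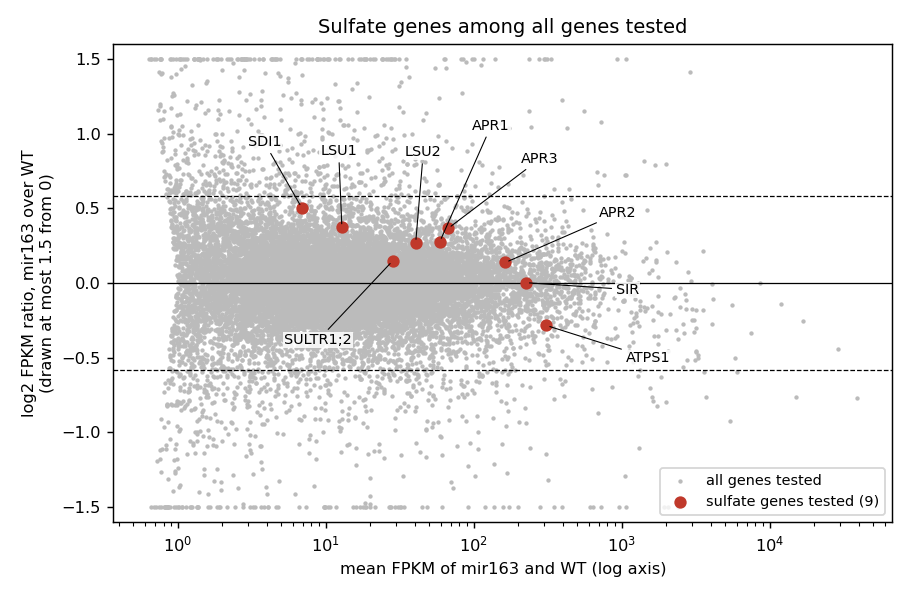
Each point is a gene tested, with its mean FPKM over both genotypes (log axis) against its log2 FPKM ratio of mir163 over WT, drawn at most 1.5 from 0; genes listed at 0 in a genotype are left out, and dashed lines mark a ratio of 1.5 in each direction. The 9 sulfate genes tested lie inside the dashed lines, with SDI1 highest at a log2 ratio of 0.50 and ATPS1 lowest at -0.28.

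The wider sulfur pathway gave values on both sides of WT. Over the 68 other sulfur genes tested, 37 had higher and 31 lower values in mir163, 0 were called and 0 had an unadjusted p under 0.05, with a median ratio of 1.01. Only LSU3 and SULTR2;1 reached a ratio of 1.5 upwards and only APK4, an APS kinase, downwards, at 2.49 in mir163 and 3.76 in WT. APK4 is named after its value was seen. Other genes of sulfate activation and sulfite handling had a median ratio of 1.01 over 9 genes. The most abundant there was SOX, the sulfite oxidase of peroxisomes, at 101 in mir163 and 99.7 in WT. UPM1, which makes a precursor of the siroheme that sulfite reductase needs, was at 86.9 in mir163 and 71.0 in WT, and is named after its value was seen.

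Cysteine synthesis, the step after sulfide, had 4 genes higher and 9 lower in mir163, with a median ratio of 0.92 and 0 called. CYSC1, the mitochondrial enzyme that uses cysteine to detoxify cyanide, was at 598 in mir163 and 631 in WT. OASA1, the main cytosolic enzyme that builds sulfide into cysteine, was at 247 in mir163 and 226 in WT. Methionine and S-adenosylmethionine genes had 5 higher and 9 lower, with a median ratio of 0.97 and 0 called. Here the methionine synthase MS1 was at 1263 in mir163 and 1290 in WT, and SAM1, which makes S-adenosylmethionine, at 569 and 610.

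All 5 glutathione genes had higher values in mir163, with a median ratio of 1.17 and 0 called. GSH1, which makes gamma-glutamylcysteine in the first step, stood at 149 in mir163 and 137 in WT. GGCT2;2, which breaks glutathione down, stood at 78.3 in mir163 and 58.7 in WT. The other markers of sulfur shortage had 7 of 10 higher, with a median ratio of 1.09 and 0 called. SULTR2;1, given above, and SHM7, a serine hydroxymethyltransferase, at 34.7 in mir163 and 32.6 in WT, were the most abundant of them. The markers SULTR2;1, SULTR4;2, GGCT2;1 and SERAT3;2 are also counted in the transporter, glutathione or cysteine lists.

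Transcripts of the pathway's regulators differed little in level. SLIM1 was at 9.05 in mir163 and 8.28 in WT and HY5, a light regulator that can activate APR genes, at 25.7 and 23.6, both named after their values were seen. MYB28 and MYB34, regulators of glucosinolate synthesis, were at 47.5 and 43.1 in mir163 and 44.6 and 39.7 in WT. Of the 6 regulators tested, 5 had higher values in mir163, with a median ratio of 1.08 and 0 called. MYB76 and MYB122 were not analysed here.

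**Figure D4:**
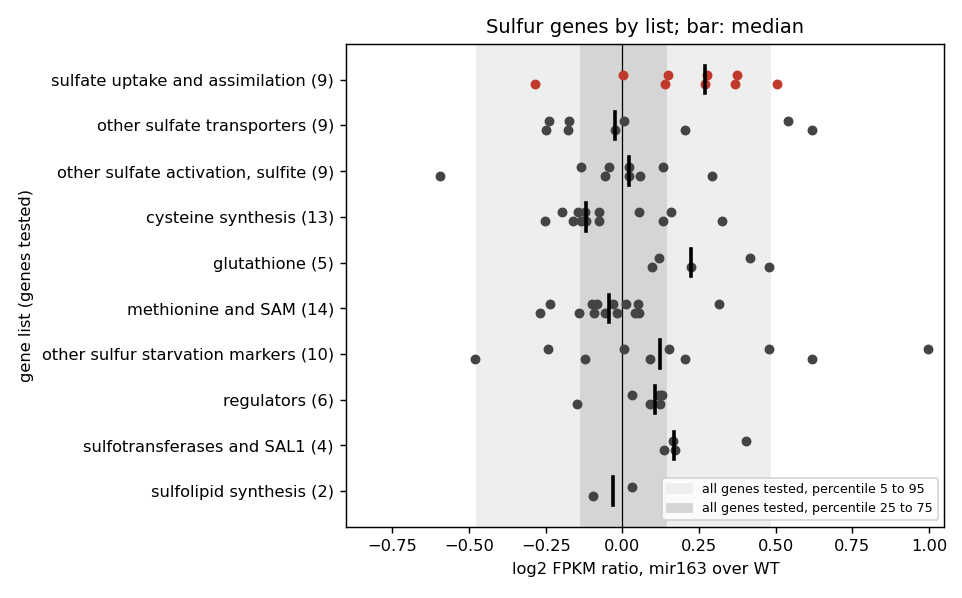
Log2 FPKM ratio of mir163 over WT for each gene tested (points), by list, with a black bar at each list's median and grey bands for the central ranges of all genes tested. The 9 sulfate genes, in red, have a median of 0.27, and the cysteine list, with 13 genes, one of -0.12.

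Evening clock genes, listed because they were already known to have moved, had much larger ratios than the sulfate genes. All 5 evening-phased clock genes listed had an unadjusted p under 0.05 in the authors' deposited table, with ratios between 2.36 and 7.41. Of all genes tested, 0.67% were higher at that threshold and 0.327% lower. Because the 5 were chosen with their change known, setting them beside all genes is no test. After adjustment over all genes, 0 of the 5 were called, and no other gene was. TOC1, the core evening repressor, stood at 26.0 in mir163 and 7.72 in WT. ELF4 and LUX, of the evening complex that represses genes at dusk, stood at 31.4 and 44.7 in mir163 and at 4.99 and 6.59 in WT. PRR5, a repressor of morning genes, stood at 3.47 in mir163 and 0.469 in WT. No source used here gives the time of day at sampling, and the part of the clock genes in the sulfate genes' values was not tested.

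Annotation bears on how far neighbouring and related genes could share fragments. APR2 overlaps AT1G62170 by 225 bases and a long non-coding RNA by 782, both on the opposite strand and neither analysed here. APR1 overlaps AT4G04614 by 21 bases and APR3 overlaps APG8A by 27, also on the opposite strand. Among the members' relatives, SDI2 overlaps VAMP726 by 431 bases and ATPS2 overlaps AVA-P2 by 117, again on the opposite strand. Likewise SULTR2;2 overlaps a long non-coding RNA by 942 bases, ATPS4 overlaps AT5G43770 by 74 and ATPS3 overlaps AT4G14675 by 16. No source used here says whether the libraries kept strand. The levels of the 3 APR genes and of these relatives are uncertain to that extent. Between coding sequences, APR1 and APR3 were 82.4% identical with a longest shared run of 41 bases, and ATPS1 and ATPS3 81.7% with 50 bases. LSU1 and LSU3 were 83.8% identical with a run of 23 bases, and LSU2 and LSU4 88.2% with 30 bases. Whether the authors' counting divided fragments between such pairs was not tested.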

How the data were processed

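RNA was measured in 3 mir163 and 3 WT libraries. TopHat, Cufflinks, bcl2fastq 2.17.1.14 and TAIR10 as the build appear, without roles, in the submitters' processing notes. Per the file headers, the authors' deposited table has a column of FPKM for each genotype, one of log2 fold changes and one of p-values without adjustment. No source used here tells how libraries were combined or which test was used. The deposited log2 values equal the log2 FPKM ratio within 1.25e-05. Depth is unknown, so no interval or floor was given.

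Genes with an FPKM of at least 1 in a genotype were tested (19264, leaving out 691). Benjamini-Hochberg adjustment of the authors' p-values ran over all of these. Ratios are plain FPKM ratios. Medians of ratios have no pseudocount; alternatives with one use log2(FPKM + 1). Limma over libraries was not possible with 1 value per genotype. Members and lists were chosen with earlier results of these data known, so no p was adjusted over a list alone.

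Named genes are all members, close relatives, and per list the genes with an unadjusted p under 0.05 (at most 4), or else the 2 with the highest mean FPKM; exceptions are named in the text. Symbols, coordinates and sequences are from RefSeq TAIR10.1, which 19672 gene identifiers matched. Coding sequences were aligned over the longest annotated coding sequence of each gene. Calculations used Python 3.11.15, numpy 2.4.6, pandas 2.3.3 and scipy 1.17.1, and were tested on simulated data. The alternatives were a fold of 2, a minimum FPKM of 5 or none, pseudocounts of 0.1 and 5, median-ratio scaling and quantile normalization.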

Additional observations from a re-analysis of the deposited data

How the results depend on the processing

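No paired analysis was possible because each genotype has only 1 deposited value, which also means that no library could be left out and that p-values stay as deposited under every scaling. Without a filter, and at a minimum FPKM of 5, the adjusted p-values called 0 members and 0 genes, with a lowest adjusted p of 0.0907 and 0.0925. No member passed a fold of 1.5 under median-ratio scaling or quantile normalization, or a fold of 2. The members' median change in log2(FPKM + 1) was 0.26. It was 0.20 with no filter, where SULTR1;1 enters, 0.27 with a pseudocount of 0.1, 0.24 with one of 5, 0.25 after median-ratio scaling and 0.27 after quantile normalization. Of 20 member values under these 2 scalings, 17 kept their direction. The log2 ratio of SIR turned to -0.0051 after median-ratio scaling. That of SULTR1;1 turned to -0.0037 after median-ratio scaling and to -0.0084 after quantile normalization. Both ratios were within 0.004 of 0 as deposited. Of 36 list medians under the pseudocounts and scalings, 32 stayed within 1.5 times their value and 4 did not, and none changed sign.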

Other observations

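Sulfotransferase, SAL1 and sulfolipid genes, outside cysteine synthesis, were also looked at. The 3 glucosinolate sulfotransferases, which draw on the sulfate donor made by APS kinases, had higher values in mir163. SOT16 stood at 95.3 in mir163 and 85.1 in WT, and SOT18 at 71.1 in mir163 and 53.8 in WT, a ratio of 1.32. SOT17 was at 30.6 in mir163 and 27.9 in WT. SAL1, which removes the by-product of these enzymes, stood at 47.5 in mir163 and 42.2 in WT. SOT17 and SAL1 were named after their values were seen. None of the 4 genes was called, and the lowest unadjusted p in the authors' deposited table was 0.280, for SOT18. The sulfolipid enzymes SQD1 and SQD2 stood at 73.5 and 40.7 in mir163 and at 71.9 and 43.5 in WT.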
